A study of Mus musculus with 56 samples.

Results

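The plasma proteins of the coagulation and complement cascades were followed as a set of 34 named genes in mouse liver. They comprised the 3 fibrinogen chains, the clotting factors with the contact pathway, the anticoagulants and fibrinolysis proteins, and the lectin pathway, membrane attack complex and regulators of complement. A member was measured where an array probe set carried exactly 1 gene symbol and that symbol was on the list. This gave 44 probe sets for 33 of the 34 genes, out of 34958 such probe sets for 18194 genes. C3 has no probe set of its own under this rule and is not analysed here. All 33 measured members passed the filter on low values in both array sets.

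In the coagulation cascade, proenzymes made by hepatocytes activate one another in turn until thrombin converts fibrinogen to fibrin. Antithrombin, heparin cofactor II, protein C and protein S restrain that chain, and plasmin dissolves the clot. In complement, mannose-binding lectins and their serine proteases, or factor B, lead to cleavage of C3, after which C5 to C9 assemble into a membrane pore. The liver is the main source of nearly all of these proteins, and several of them, fibrinogen first, are known to rise in the IL-6-driven acute phase response. Cd55, decay-accelerating factor, differs from the other members in that it is a lipid-anchored membrane protein that dissociates the C3 convertases on cell surfaces.

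Livers came from 56 male mice of the outbred CD-1 stock, aged 6 to 8 weeks at the first dose, and each gave 1 array. Mice received vehicle (DPBS, a phosphate buffered saline) or 25 mg/kg of 1 of 3 LNA gapmers by subcutaneous injection in 10 mL/kg. An LNA gapmer is an antisense oligonucleotide with a DNA centre, which lets RNase H cut a bound RNA, between ends of locked nucleic acid. The labels call NTS-1 non-toxic, TS-2 toxic and HTS-3 severely toxic, and their sequences and targets were not used here. After a single dose, vehicle had 3 mice at each of 8, 16 and 72 h, NTS-1 had 3, 4 and 3 mice, TS-2 had 4, 3 and 4 mice, and HTS-3 had 3 mice at 8 h and 4 at 16 h. No HTS-3 liver was taken at 72 h, since per the labels those mice were dead or moribund by then. At each time 10 mice were dosed per group, and the 3 or 4 livers ranked highest for minor hypertrophy were put on arrays, so these mice do not stand for all that were dosed. The 2-week study dosed mice on days 1, 4, 8 and 11 and sampled them on day 14, with arrays for 10 mice given vehicle, 4 given NTS-1 and 5 given TS-2. HTS-3 mouse 3 at 8 h is given as 8 h in its title and as 16 h in its description, and it was kept at 8 h.

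Single-dose and 2-week arrays were fitted apart and their levels are not compared. Whole arrays of a group correlated at 0.929 to 0.992, lowest within TS-2 at 72 h. Vehicle mouse 1 at 16 h stood apart in the neutrophil markers, with a summed intensity of 27960 against 243 to 493 in the other vehicle mice of that time. Without it, the count of members past the test at 16 h was as before for NTS-1 (0), TS-2 (0) and HTS-3 (1). Hepatocyte products outside the set were bright, as the tissue label asks: 13 of 16 listed plasma proteins, albumin among them, were measured, and their summed intensity was 615727 to 677517 in vehicle at 16 h and 630425 to 734960 in HTS-3 at 16 h. The labels do not say whether arrays were run in batches.

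Most members were bright on the arrays, with a mean intensity of at least 1024 for 30 of 33 genes in each set. Pros1, C6 and Cd55 were the dimmer members after a single dose, and Pros1, F11 and Cd55 after 2 weeks. Probe sets bind with unequal strength, so these intensities rank no transcript against another. How much a member varied between mice of a group differed widely. The SD of log2 intensity within single-dose groups was 0.10 for Mbl2, 0.10 for C8g and 0.11 for Serpinc1, but 1.07 for C6, 0.77 for Hc and 0.70 for Masp1, with a median of 0.22 over the 33 genes. C6 and Hc encode the complement components C6 and C5 of the membrane pore. In TS-2 mice at 72 h, C6 read 108, 931, 3588 and 944, and Hc read 2904, 5976, 23034 and 8062. Within that 1 group, mouse 3 was highest and mouse 1 lowest for both genes. After 2 weeks Hc was the most variable member, with an SD of 0.68, and 1 NTS-1 mouse read 1333 against 6393 to 8970 in the other NTS-1 mice.

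**Figure D1:**
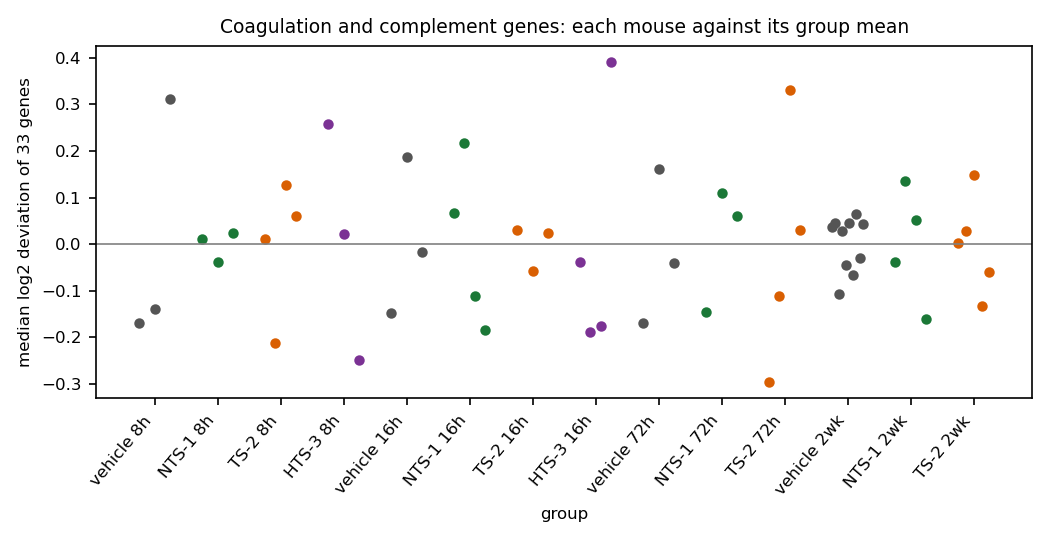
Each point is 1 mouse, and the vertical axis is the median, over the 33 measured coagulation and complement genes, of its log2 intensity minus the mean of its group; groups are along the horizontal axis. HTS-3 16 h mouse 4 (0.39), TS-2 72 h mouse 3 (0.33) and vehicle 8 h mouse 3 (0.31) lay highest, and TS-2 72 h mouse 1 (-0.30) lowest.

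Some livers lay above or below their group in most members. The median deviation of the 33 genes from the group mean reached 0.39 log2 units in HTS-3 16 h mouse 4, whose Actb 3'/5' log2 ratio, a measure of RNA integrity, was 1.15 against 1.49 to 1.77 in the other mice of its group. In 9 of the 11 single-dose groups, and in 1 of the 3 groups of the 2-week study, the mouse with the lowest ratio had the highest median deviation of the members. Among them were vehicle 8 h mouse 3 (ratio 1.39, deviation 0.31) and vehicle 16 h mouse 2 (1.20 and 0.19). With the ratio as a covariate, an alternative chosen after seeing the data, HTS-3 at 16 h again had 1 member past the test against vehicle, but 5 against NTS-1, and NTS-1 after 2 weeks had 4. Over all genes 2119, 2936 and 1159 passed with the covariate, against 1337, 1755 and 709 without it. The part of the ratio in the values was otherwise not tested.

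The first question was whether a single dose of a gapmer changed the liver RNA of these genes. The arrays do not measure protein in liver or plasma. For NTS-1 and TS-2 no member passed the test at any of the 3 times, where passing means a Benjamini-Hochberg adjusted p under 0.05 over all genes in limma. For NTS-1 the background share of all genes past the test was 0.61% at 8 h, 0.148% at 16 h and 0% at 72 h, and no member reached even an unadjusted p under 0.05. For TS-2 it was 0.044% at 8 h, 0.0165% at 16 h and 0.137% at 72 h, and 1, 1 and 0 members had an unadjusted p under 0.05. HTS-3 at 8 h likewise had 0 members past the test against 0.588% of all genes, with 1 member at an unadjusted p under 0.05. The median log2 change over the members in these 7 comparisons lay between -0.10 and 0.00, with all genes at 0. Since the filter removed no gene from the single-dose set, its all-gene medians and shares include genes near the array floor.

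In these 7 comparisons the widest shifts did not pass the test. For NTS-1 the largest log2 changes were C6 -0.20, Masp1 0.20 and Pros1 0.18 at 8 h, C6 -0.32, Pros1 -0.23 and Hc -0.23 at 16 h, and F5 -0.50, C8b 0.20 and Masp1 -0.19 at 72 h. F5, coagulation factor V, the cofactor of the prothrombin-cleaving enzyme, read 3830, 3141 and 4128 in NTS-1 mice at 72 h and 2844, 6273 and 7795 in vehicle. The NTS-1 values lay inside the vehicle range. At 8 h Masp1, a protease of the lectin pathway, read 2744, 1890 and 2545 after NTS-1 and 1667, 1537 and 3377 in vehicle, and the groups overlapped. C8b, the beta chain of C8, read 18600, 20257 and 19052 in NTS-1 mice at 72 h against 14264, 17404 and 19012 in vehicle.

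After TS-2 the largest log2 changes were Cd55 0.35, C9 -0.29 and C6 0.27 at 8 h, Mbl2 -0.29, Cd55 -0.24 and C4bp -0.23 at 16 h, and Cd55 -0.67, Hc 0.35 and Masp1 -0.33 at 72 h. C9, which forms the wall of the pore, read 31406, 31184, 34622 and 28538 at 8 h against 34288, 41469 and 39566 in vehicle, and 1 TS-2 mouse lay above the lowest vehicle mouse. Mbl2, a mannose-binding lectin, read 21880, 20393 and 19793 at 16 h against 26831, 23916 and 24939 in vehicle, so that the groups did not overlap (log2 change -0.29 ± 0.08 SE, adjusted p = 0.695). Mbl1 was the other member whose groups were apart at that time, at 10757, 10711 and 9885 against 10861, 11376 and 11164. Over all genes 6.8% had groups apart in that comparison, so 2 of 33 members is near the background. C4bp, the fluid-phase cofactor that helps inactivate C4b, read 18275, 19886 and 18071 against 25328, 23605 and 17890.

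HTS-3 at 8 h gave log2 changes of 0.28 for Pros1, 0.20 for C6 and -0.19 for Fga, again with overlapping groups. The fibrinogen alpha chain gene Fga read 60674, 52846 and 41038 after HTS-3 and 54220, 50996 and 71258 in vehicle. Pros1, protein S, the cofactor of activated protein C, read 1599, 768 and 463 against 541, 475 and 1235. Both groups spanned nearly the same range. For these 7 comparisons the 95% interval of the change, taken as the estimate ± 1.96 SE, lay within a 2-fold change either way for 28 to 30 of the 33 members. Masp1, Hc and C6 were outside that bound each time.

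**Figure D2:**
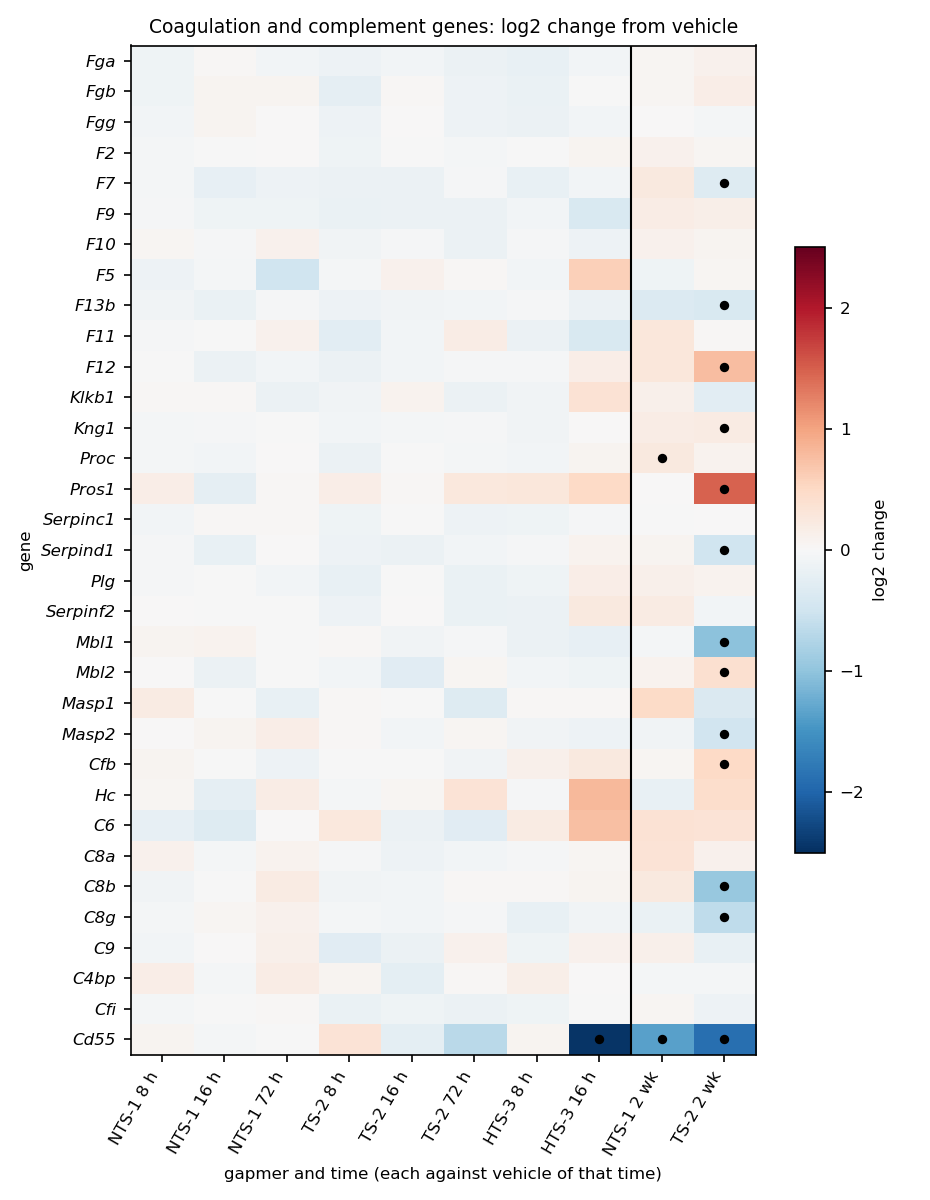
Rows are the 33 measured genes, ordered by role from fibrinogen to complement regulators, and columns are the 10 comparisons with vehicle; colour gives the log2 change and a black dot marks an adjusted p under 0.05. The vertical line parts single-dose from 2-week comparisons. Dots occur for Cd55 after HTS-3 at 16 h, for Cd55 and Proc after 2 weeks of NTS-1, and for 13 genes after 2 weeks of TS-2.

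At 16 h after HTS-3 a single member passed the test. Cd55 fell, from 233, 339 and 264 in vehicle mice to 35.9, 73.9, 107 and 23.2 in HTS-3 mice. All HTS-3 mice lay below all vehicle mice, and mouse 4 was under an intensity of 32, the limit below which a gene is called dim here. With values under 32 set to 32, Cd55 was at least 5.02-fold lower (log2 change -2.44 ± 0.42 SE, 95% interval -3.26 to -1.62, limma adjusted p = 2.13e-04). The 3 probe sets for Cd55 gave log2 changes of -2.44, -2.18 and -3.00. Without vehicle mouse 1 the change was -2.56 (adjusted p = 9.19e-04) and without HTS-3 mouse 4 it was -2.07 (adjusted p = 0.00137). In a fit on these 7 arrays alone the adjusted p was 0.216, with the SD within HTS-3 mice at 1.00 against 0.27 in vehicle.

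The other 32 members did not pass the test at that time, in a comparison in which 7.35% of all genes passed, 4.03% of all genes lower, and in which 12.6% of all genes had groups apart. The share of members past the test was 3.03%. Among the 3392 genes with a mean intensity of at least 1024, 8.73% passed, and of the 30 members that bright 0 passed. The median log2 change over the members was 0.01 and ran from -2.44 to 0.82. Fibrinogen stood at log2 changes of -0.06 to -0.02 over its 3 chains. Hc, C6 and F5 had the next largest estimates, at 0.82, 0.74 and 0.60. Hc read 17266, 9223, 6210 and 17788 after HTS-3 against 6964, 5584 and 7202, C6 read 2104, 851, 1427 and 5899 against 1033, 1811 and 871, and F5 read 7215, 3464, 3325 and 11772 against 2420, 5300 and 3914. In each of these 3 genes HTS-3 mouse 4 was the highest of its group. The 95% interval lay within a 2-fold change for 25 of the 33 members.

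F9, coagulation factor IX, whose loss causes haemophilia B, lay near the threshold. Its log2 change was -0.37 ± 0.14 SE (adjusted p = 0.101) with all 4 HTS-3 mice. Without mouse 4 it was -0.51 (adjusted p = 0.0116), and 2 members then passed the test. With all 4 mice it also passed under array weights (-0.49, adjusted p = 9.08e-04) and with the HTS-3 mouse of uncertain time moved to 16 h (-0.41, adjusted p = 0.0485). Among other clotting factors, F2 and F10 had estimates between -0.12 and 0.06. For F5 and F11 the interval of the change reached past 2-fold, so these were poorly bounded, while that of F7 stayed within it.

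The time course of Cd55 was tested as the HTS-3 effect at 16 h minus that at 8 h. At 8 h Cd55 read 195, 186 and 185 after HTS-3 and 166, 186 and 186 in vehicle, so the groups overlapped. The difference between the effects was -2.52 ± 0.61 SE (adjusted p = 0.0342), and Cd55 was the 1 member to pass, in a contrast in which 1.32% of all genes passed, 1.08% lower. That call rested on nearly every mouse: it was lost on leaving out any of 11 of the 13 mice, with adjusted p up to 0.0874, the exceptions being HTS-3 16 h mice 2 and 3. Moving HTS-3 8 h mouse 3, whose labels give both times, to 16 h gave a difference of -2.16 (adjusted p = 0.269).

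Against the other gapmers at 16 h, Cd55 was again the 1 member past the test. HTS-3 against NTS-1 gave a log2 change of -2.40 ± 0.39 SE (adjusted p = 7.58e-05), in a comparison with 9.65% of all genes past the test and 4.46% lower. HTS-3 against TS-2 gave -2.21 ± 0.42 SE (adjusted p = 7.56e-04), with 5.95% of all genes past the test and 3.8% lower. NTS-1 mice read 277, 220, 223 and 376 and TS-2 mice 193, 218 and 304 at 16 h, within or near the vehicle range. These 3 comparisons share the HTS-3 mice. In fits on the compared groups alone the adjusted p was 0.0828 against NTS-1 and 0.246 against TS-2. At 8 h HTS-3 had 0 members past the test against NTS-1 (0.572% of all genes) and 0 against TS-2 (0.264%).

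**Figure D3:**
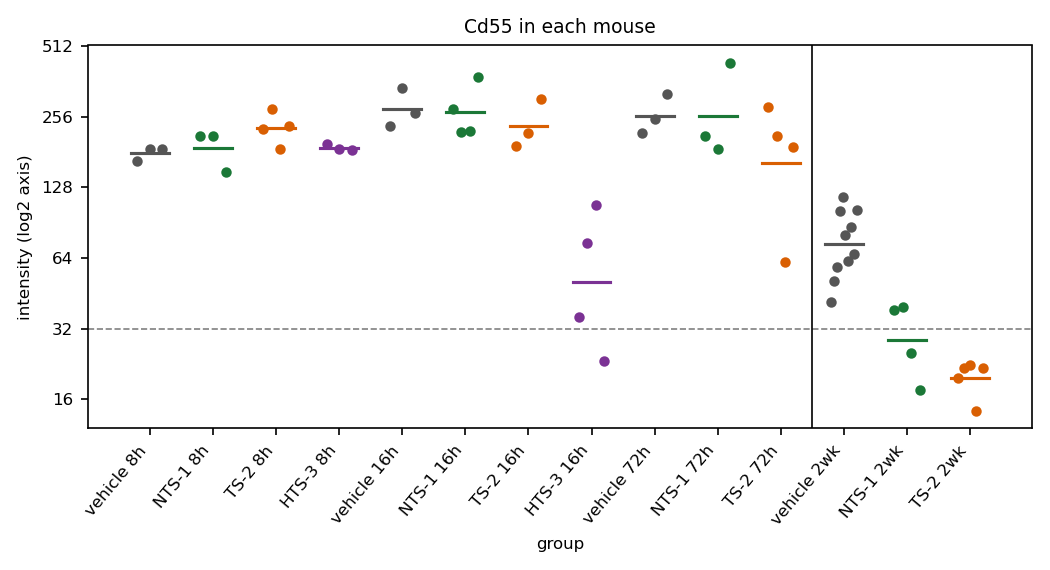
Each point is the Cd55 intensity of 1 mouse on a log2 axis, the bars are group means of log2 intensity, the dashed line is the dim limit of 32, and the vertical line parts single-dose groups from the 2-week groups. The 4 HTS-3 16 h mice, at 23.2 to 107, lie below every other single-dose mouse except TS-2 72 h mouse 3 (61.4), and the 5 TS-2 mice of the 2-week study, at 14.3 to 22.4, lie below all vehicle mice.

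Cd55 is made by many cell types, and some markers of other liver cells passed the test in the same comparison, beside 7.35% of all genes. Of 10 endothelial markers 1 was higher and 3 were lower past the test, with Tek, the angiopoietin receptor, at a log2 change of -3.86, Stab2 at -1.53 and Kdr the other lower one, while Stab1 was at 1.29. The summed endothelial intensity was 5784 to 8949 after HTS-3 and 8588 to 9988 in vehicle, with Pecam1 and Vwf dim on all arrays of both groups and Cdh5 and Tie1 on all vehicle arrays. Without vehicle mouse 1 the count was 0 higher and 3 lower, as it was without HTS-3 mouse 4. Of 12 macrophage markers 1 was lower (Vsig4, the complement receptor of Kupffer cells, -0.86), and the sums were 12624 to 18042 against 16286 to 44560, with Marco and Ccr2 dim on all arrays of both groups. The highest vehicle sum was that of mouse 1, and without it 0 macrophage markers passed. The part of these cells in the Cd55 value was not tested. In whole liver, fewer cells of a type and less RNA per cell cannot be told apart.

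Among 17 measured complement genes outside the set, 3 were lower 16 h after HTS-3 and 0 higher. They were C1qb (-1.07) and C1qa (-0.97), chains of the C1q recognition molecule that macrophages make, and Vsig4, which is on the macrophage list too. Without vehicle mouse 1, 0 of these genes passed, with C1qa at -0.69 (adjusted p = 0.0669), and without HTS-3 mouse 4, 1 did. Among 18 other coagulation genes 1 passed, A2m, at a change of -0.01 near the array floor. Of the 20 genes of the IL-6 signal and acute phase list 2 were lower, Orm2 (-2.82) and the iron hormone gene Hamp (-1.84), and 0 were higher. Without vehicle mouse 1, Orm2 was at -1.14 (adjusted p = 0.309) and Hamp at -1.84 (adjusted p = 3.39e-11). Of 10 liver transcription factors Foxa3 was higher (1.13), and of 13 hepatocyte-secreted proteins 0 passed.

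Repeated dosing of TS-2 over 2 weeks was followed by changes within both cascades. Of the 33 members 13 passed the test, 5 higher and 8 lower, against 37.4% of all genes past the test, 22.8% higher and 14.6% lower. The members' share was 39.4%, near that background, and below the 54.4% of genes with a mean intensity of at least 1024. Of the members that bright, 11 of 30 passed. The groups were apart for 7 members, 2 above and 5 below vehicle, against 11.4% of all genes. The median log2 change over the members was 0.03, against -0.01 over all genes.

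Fibrinogen, the substrate of clotting, did not pass the test in any chain. The log2 changes were 0.11 for Fga, 0.17 for Fgb (adjusted p = 0.0699) and -0.04 for Fgg, with 95% intervals of -0.13 to 0.34, 0.03 to 0.32 and -0.18 to 0.10. Fga read 17223, 16635, 17508, 13970 and 21040 after TS-2, against 11353 to 19293 with a median of 17145 in vehicle. The mean intensities of Fga, Fgb and Fgg over the 2-week arrays were 16331, 21577 and 23484. The highest value on each of these arrays was 32516 to 36010. Whether so bright a signal hid a rise was not tested. Other genes known from the acute phase response did rise in these livers: of 20 measured genes of that list 13 were higher and 1 lower, among them Lcn2 (3.96), Orm2 (3.36), Socs3 (2.17) and Saa2 (2.05). In all 70.0% of the list passed, beside 37.4% of all genes. The list held no member of the set, and without TS-2 mouse 5 there were 10 higher, Saa2 not among them. The TS-2 and vehicle groups overlapped for Orm2, Socs3 and Saa2 and were apart for Lcn2.

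Among the proenzymes, F7, the factor that starts clotting with tissue factor, passed as lower, at 3032, 2907, 4005, 2084 and 2552 against 3116 to 4890 (median 3500). The groups overlapped and the call was marginal (log2 change -0.33 ± 0.13 SE, adjusted p = 0.0495): it was lost on leaving out any of 12 of the 15 mice, all but vehicle mice 5 and 8 and TS-2 mouse 3, with adjusted p from 0.050 to 0.200. It was also lost under 8 of the 11 other settings. F2, F9 and F10, which give prothrombin, factor IX and factor X, had log2 changes of 0.05, 0.15 and 0.06. For F10 the 2 dimmer of its 3 probe sets passed when each was fitted on its own, at 0.35 and 0.41, and the brightest, which stands for the gene, did not. F13b, the carrier subunit of the fibrin-crosslinking factor XIII, passed as lower, at 3161, 3155, 3429, 3208 and 2200 against 2657 to 4615 (median 4016), with a log2 change of -0.39 ± 0.13 SE (adjusted p = 0.0195). Without TS-2 mouse 5, the lowest, its adjusted p was 0.0908. With vehicle mice 1 to 5 alone as controls it was 0.145, and with the replicate number as a block 0.200.

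In the contact pathway F12, factor XII, rose. It read 5769, 7437, 7216, 7490 and 8818 after TS-2 against 3675 to 6369 (median 4060) in vehicle, and TS-2 mouse 1 lay below the highest vehicle mouse. The log2 change was 0.77 ± 0.12 SE, 1.70-fold (adjusted p = 4.62e-05). Kng1, kininogen, the bradykinin precursor, passed with a small rise of 0.20 ± 0.07 SE (adjusted p = 0.032), at 15498, 15640, 16733, 15984 and 21021 against 13665 to 15727 (median 14653). Its other probe set was at -0.11, and the call was lost with the mean of both (0.05), with array weights, with the replicate block, with either subset of vehicle mice, and without TS-2 mouse 3, TS-2 mouse 5, vehicle mouse 5 or vehicle mouse 6 (adjusted p = 0.0533, 0.153, 0.0502 and 0.0509). F11 and Klkb1, factor XI and prekallikrein, stood at 0.03 and -0.26 and did not pass.

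Of the 4 anticoagulants 1 rose and 1 fell past the test. Pros1, protein S, had the largest rise of any member, to 513, 731, 764, 826 and 1302 from 137 to 346 (median 317) in vehicle. Every TS-2 mouse lay above every vehicle mouse, and the log2 change was 1.47 ± 0.24 SE, 2.76-fold (adjusted p = 9.11e-05). Serpind1, heparin cofactor II, an inhibitor of thrombin, fell to 6097, 7348, 7920, 6461 and 4028 from 8072 to 10281 (median 8562). These groups were also apart, with a log2 change of -0.50 ± 0.11 SE (adjusted p = 0.00179). Serpinc1, antithrombin, was at 0.01 with a 95% interval of -0.10 to 0.12, and Proc, protein C, was at 0.09. The fibrinolysis genes Plg and Serpinf2, plasminogen and the plasmin inhibitor, were at 0.08 and -0.07.

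Within the lectin pathway the 2 mannose-binding lectins went opposite ways. Mbl1 fell to 5524, 2555, 4547, 1407 and 2414 from 5067 to 6684 (median 6084). Mouse 1 stayed inside the vehicle range and mouse 4 was lowest, and the log2 change was -1.03 ± 0.20 SE (adjusted p = 5.42e-04). Mbl2 rose to 14552, 17724, 16068, 14804 and 13081 from 9786 to 12441 (median 11976), with the groups apart and a log2 change of 0.41 ± 0.08 SE (adjusted p = 4.99e-04). Masp2, the protease that cleaves C4 and C2, fell to 1517, 1839, 1717, 1683 and 1105 from 1844 to 2674 (median 2188), a log2 change of -0.48 ± 0.11 SE (adjusted p = 0.00152). Its other probe set, a dimmer one, was at -0.03 and did not pass. Masp1 was at -0.36 (adjusted p = 0.0717), and passed without TS-2 mouse 1 (-0.52, adjusted p = 0.00724).

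Cfb, factor B of the alternative pathway convertase, rose to 7150, 10035, 9450, 9089 and 12001 from 5945 to 7910 (median 6652). TS-2 mouse 1 lay inside the vehicle range, and the log2 change was 0.49 ± 0.11 SE (adjusted p = 0.00108). Of the 6 membrane attack genes 2 fell, which encode 2 of the 3 chains of C8. C8b read 5254, 4100, 6512, 2392 and 3091 against 6723 to 8967 (median 7763), with the groups apart and a log2 change of -0.95 ± 0.16 SE (adjusted p = 1.14e-04). C8g, the gamma chain, read 12020, 10307, 13587, 9481 and 7496 against 14569 to 17559 (median 15984), also apart, at -0.63 ± 0.10 SE (adjusted p = 7.27e-05). C8a, the alpha chain, was at 0.11 with a 95% interval of -0.12 to 0.34, so the 3 chains of this protein did not share 1 estimate. Hc, C6 and C9 were at 0.43, 0.33 and -0.18 and did not pass.

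Cd55 fell after TS-2 to 19.8, 21.8, 22.4, 14.3 and 21.9, from 41.7 to 117 (median 73.5) in vehicle. All TS-2 mice were dim and below all vehicle mice, so the fold is a bound, at least 2.29-fold lower (log2 change -1.89 ± 0.23 SE, adjusted p = 5.39e-06). Of the other regulators, C4bp and Cfi, factor I, which cuts C3b and C4b, were at -0.06 and -0.13. Leaving out any 1 mouse kept Cd55, Pros1, F12, C8b, C8g, Mbl1, Mbl2, Serpind1, Cfb and Masp2 past the test, with adjusted p no higher than 0.00602.

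**Figure D4:**
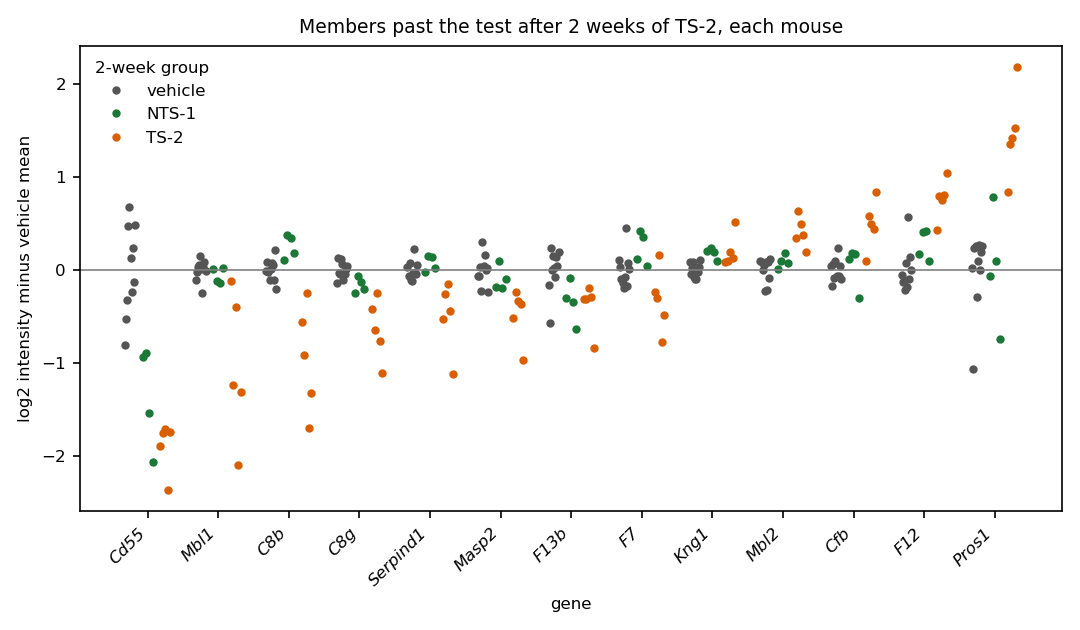
For the 13 genes past the test after 2 weeks of TS-2, each point is the log2 intensity of 1 mouse minus the mean of the 10 vehicle mice, with vehicle, NTS-1 and TS-2 mice side by side and genes ordered by the TS-2 change from lowest to highest. Pros1 and Mbl2 of all TS-2 mice lie above vehicle, and Cd55, C8b, C8g, Serpind1 and Masp2 of all TS-2 mice lie below it.

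The promoters of the 3 fibrinogen genes, which did not pass the test, of Cd55, Pros1 and Mbl1, the 3 members with a change over 2-fold after TS-2, and of C8b, the next in size, are shown so that the presence of known liver motifs can be read from them. Each is the RefSeq GRCm38.p6 window of 300 bases, from 250 before to 50 after the start, 5′ to 3′ in the direction of the gene, and RefSeq promoters were matched for 28 of the 34 members. Capitals mark matches on either strand to 4 searched motifs: CTGGGAA for the IL-6 response element, TTGCNNAA for C/EBP, GTTAATNNT for HNF1 and CAAAGTCCA for HNF4. In these 7 windows no match overlapped another. The windows are chr3:83025903-83026202 (+) for Fga, chr3:83049814-83050113 (-) for Fgb, chr3:83007474-83007773 (+) for Fgg, chr1:130462695-130462994 (-) for Cd55, chr16:62854057-62854356 (+) for Pros1, chr14:41151206-41151505 (+) for Mbl1 and chr4:104766067-104766366 (+) for C8b.
Fga: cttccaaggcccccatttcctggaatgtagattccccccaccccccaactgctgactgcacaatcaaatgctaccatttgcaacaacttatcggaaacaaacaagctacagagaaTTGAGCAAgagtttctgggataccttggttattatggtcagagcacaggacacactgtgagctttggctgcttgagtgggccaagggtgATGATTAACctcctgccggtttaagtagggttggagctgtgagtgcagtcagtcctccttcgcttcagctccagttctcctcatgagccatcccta
Fgb: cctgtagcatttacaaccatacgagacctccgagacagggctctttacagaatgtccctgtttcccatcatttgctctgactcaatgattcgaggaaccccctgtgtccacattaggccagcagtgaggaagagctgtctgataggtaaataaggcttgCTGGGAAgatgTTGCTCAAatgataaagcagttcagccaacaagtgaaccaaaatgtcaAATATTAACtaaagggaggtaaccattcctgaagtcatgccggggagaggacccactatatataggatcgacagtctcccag
Fgg: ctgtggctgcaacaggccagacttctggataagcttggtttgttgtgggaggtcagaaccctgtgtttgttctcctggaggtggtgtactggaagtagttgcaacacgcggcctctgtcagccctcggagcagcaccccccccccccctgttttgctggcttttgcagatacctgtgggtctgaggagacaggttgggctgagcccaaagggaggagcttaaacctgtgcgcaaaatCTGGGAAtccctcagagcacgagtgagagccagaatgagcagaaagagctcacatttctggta
Cd55: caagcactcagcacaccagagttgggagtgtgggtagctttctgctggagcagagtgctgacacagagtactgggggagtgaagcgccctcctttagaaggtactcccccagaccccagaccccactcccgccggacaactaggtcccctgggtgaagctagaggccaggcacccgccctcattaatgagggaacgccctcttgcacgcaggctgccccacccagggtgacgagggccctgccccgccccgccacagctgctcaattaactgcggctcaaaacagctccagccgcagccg
Pros1: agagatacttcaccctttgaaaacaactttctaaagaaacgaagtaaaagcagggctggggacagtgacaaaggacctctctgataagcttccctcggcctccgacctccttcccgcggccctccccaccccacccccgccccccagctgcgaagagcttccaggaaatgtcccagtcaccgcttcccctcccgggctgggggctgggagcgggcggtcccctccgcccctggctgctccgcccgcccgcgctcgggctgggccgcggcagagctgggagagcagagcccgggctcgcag
Mbl1: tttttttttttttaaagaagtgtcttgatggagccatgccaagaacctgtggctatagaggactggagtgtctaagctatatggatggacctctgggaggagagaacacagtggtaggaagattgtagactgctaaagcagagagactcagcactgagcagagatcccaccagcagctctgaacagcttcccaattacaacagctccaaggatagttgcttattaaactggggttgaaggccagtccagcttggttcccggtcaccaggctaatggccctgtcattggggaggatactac
C8b: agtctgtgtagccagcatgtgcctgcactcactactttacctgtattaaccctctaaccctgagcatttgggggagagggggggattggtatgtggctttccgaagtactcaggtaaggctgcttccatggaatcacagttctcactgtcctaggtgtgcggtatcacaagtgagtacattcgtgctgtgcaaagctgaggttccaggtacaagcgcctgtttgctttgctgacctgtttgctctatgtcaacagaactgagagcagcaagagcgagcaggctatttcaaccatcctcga

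Each fibrinogen promoter held at least 1 match, and Fgb held 3 kinds, while the windows of Cd55, Pros1, Mbl1 and C8b held none of the 4. Members not shown went the other way. Masp2, with the IL-6 motif, and F13b, with the HNF1 motif, passed the test after TS-2. F5, F10, C8a and Serpinf2 held no match and did not pass. A relation of motifs to change was not tested. The IL-6 motif was found in 5 of 28 member windows (17.9%) and in 11.1% of 27025 promoters of the same length, the C/EBP motif in 8 (28.6%) against 10.8%, the HNF1 motif in 6 (21.4%) against 2.62%, and the HNF4 motif in 0 against 0.477%. A match is a run of letters and shows no binding.

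After 2 weeks of NTS-1, 2 of the 33 members passed the test, 1 higher and 1 lower. Their share, 6.06%, is near the 4.91% of all genes, 1.87% higher and 3.04% lower. Cd55 fell to 38.4, 39.6, 25.2 and 17.6 from a vehicle range of 41.7 to 117. The NTS-1 mice lay below all vehicle mice, at least 2.07-fold lower with values under 32 set to 32 (log2 change -1.35 ± 0.25 SE, adjusted p = 0.00692). With vehicle mice 1 to 5 alone as controls its adjusted p was 0.0845, and with the replicate number as a block it was 0.21. Over all genes 1 and 0 passed under those settings, against 709 in the main fit. Numbers 6 to 10 occur only in vehicle, so the block too takes those mice out of the estimate. The 2 settings are therefore not separate checks. The samples are listed with vehicle mice 1 to 5 directly before NTS-1 and vehicle mice 6 to 10 directly before TS-2. Whether each gapmer had its own controls in a separate run is not given by the labels and was not tested. Proc rose slightly, to 11310, 11071, 11307 and 10589 from 8702 to 9832 (median 9299), a log2 change of 0.25 ± 0.06 SE (adjusted p = 0.0266). That call was lost without NTS-1 mouse 1, 2 or 3 (adjusted p = 0.0715, 0.0679 and 0.0846) and with vehicle mice 1 to 5 or 6 to 10 alone as controls (adjusted p = 0.175 and 0.0561).

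The groups were apart for 3 members after NTS-1, against 3.07% of all genes: Proc and Masp1 above vehicle and Cd55 below. Masp1 read 1925, 2547, 2189 and 1860 against 1236 to 1859 (median 1486), at a log2 change of 0.49 ± 0.17 SE (adjusted p = 0.0949). None of its other probe sets moved as far, with changes of -0.08, 0.23 and -0.05. C6 was at 0.36 and C8a at 0.35 (adjusted p = 0.563 and 0.116). As after TS-2, the dimmer probe sets of F10 passed when each was fitted on its own, both at 0.37, and the brightest did not (0.10). F12 (0.28) passed only without vehicle mouse 7 (adjusted p = 0.047) and F13b (-0.34) without vehicle mouse 2 (adjusted p = 0.0345), among the mice left out in turn. The 95% interval lay within a 2-fold change for 32 of the 33 members, Cd55 being the exception.

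**Figure D5:**
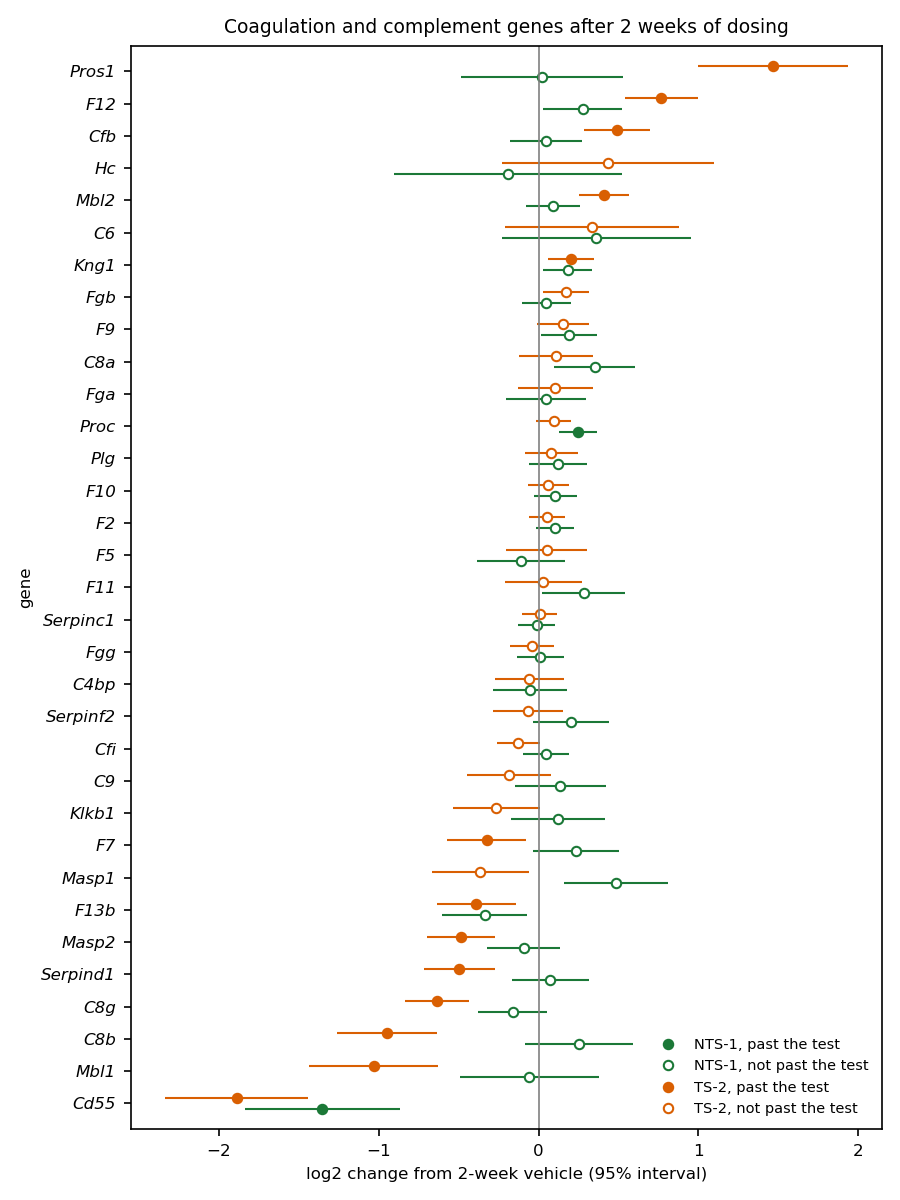
Points are log2 changes of the 33 genes from the 2-week vehicle mice, with lines for the 95% interval, for NTS-1 (green) and TS-2 (orange); filled points passed the test. Pros1 lies at 1.47 after TS-2 and 0.02 after NTS-1, C8b at -0.95 and 0.25, and Cd55 at -1.89 and -1.35.

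TS-2 and NTS-1 were given at the same dose on the same study days. The labels do not say whether they were run side by side. The test of their difference after 2 weeks had 21% of all genes past it, 14.1% higher and 6.93% lower. It called 11 members, 4 higher and 7 lower after TS-2. The higher ones were Pros1 (log2 difference 1.45 ± 0.29 SE, adjusted p = 0.00257), F12 (0.49), Cfb (0.44) and Mbl2 (0.32). The lower ones were C8b (-1.20 ± 0.19 SE, adjusted p = 6.56e-04), Mbl1 (-0.97), Masp1 (-0.85), Serpind1 (-0.57), F7 (-0.56), C8g (-0.47) and Masp2 (-0.39). C8b read 2392 to 6512 in TS-2 mice and 8323, 10049, 9865 and 8786 in NTS-1 mice, with no overlap. Pros1 read 274, 494, 305 and 171 in NTS-1 mice, all below the lowest TS-2 mouse at 513. The Masp1 difference was seen with 1 of the 4 probe sets tested, the others being at 0.19, 0.03 and -0.05. Cd55 did not differ past the test, at -0.54 with a 95% interval of -1.09 to 0.02.

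These calls were less firm than those against the 10 vehicle mice. Without NTS-1 mouse 4, 7 of the members passed, and in a fit on the 9 mice alone 4 did. Over all genes 1969 and 1515 passed then, against 3038 in the main fit. F12 was lost without NTS-1 mouse 1, NTS-1 mouse 4 or TS-2 mouse 5, with adjusted p of 0.0578 to 0.0696. Cfb was lost without NTS-1 mouse 4 or TS-2 mouse 5 (adjusted p = 0.0896 and 0.0592). Mbl2 was lost without any of 5 mice and Masp2 without any of 7. Klkb1 (-0.39) passed without TS-2 mouse 1 (adjusted p = 0.0413). After a single dose 0 members differed between TS-2 and NTS-1, against 0.506% of all genes at 8 h, 0.231% at 16 h and 0.17% at 72 h, with the 95% interval within a 2-fold change for 28, 29 and 28 of 33 members.

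Genes around the cascades passed the test after 2 weeks of TS-2 in the following shares, beside 37.4% of all genes: 43.8% of the other coagulation genes, 23.5% of the other complement genes and 20.0% of the liver transcription factors. Of 16 other coagulation genes 5 were higher and 2 lower (8 higher without TS-2 mouse 1), with Hrg, histidine-rich glycoprotein, at 0.64 and the protein C inhibitor Serpina5 at least 1.79-fold higher, and F8, factor VIII, at -0.89 and the protease Hgfac at -0.65. F8 in liver is known as an endothelial product. Of 17 other complement genes 3 were higher and 1 lower: C2 (0.71), the terminal complex inhibitors Clu (0.50) and Vtn (0.25, also on the list of hepatocyte products), and Cd59a (-0.43), a membrane inhibitor of the pore. Of the 4 vitamin K cycle genes, which serve the gamma-carboxylated factors, Nqo1 was higher (1.37) and Vkorc1, the epoxide reductase, lower (-0.47). Cebpb (1.47) and Hnf4a (0.86) were higher among 10 liver transcription factors. After NTS-1, C2 (0.60) and Clu (0.34) were higher and Cd59a (-0.35) lower among the complement genes, 0 of 16 other coagulation genes passed, and Hnf4a was at 0.52.

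Some cell markers passed the test in the same livers, beside 37.4% of all genes after TS-2 and 4.91% after NTS-1. After TS-2 the share of endothelial markers past the test lay above that of all genes. The shares of macrophage markers, stellate cell markers and hepatocyte-secreted proteins lay near it, and that of neutrophil markers below it. The lists are short, and whether their shares differ from that of all genes was not tested. After TS-2, 6 of 10 endothelial markers were lower and 0 higher, led by Clec4g (-1.20), and their summed intensity was 1097 to 2719 against 2501 to 4111 in vehicle, with no marker dim on all arrays of either group. After NTS-1, 3 were lower (Tek -0.99, Cdh5 -0.78 and Kdr -0.73) and the sums were 1801 to 2648, with Pecam1 dim on all NTS-1 arrays. Macrophage markers had 3 higher and 1 lower after TS-2, the mannose receptor Mrc1 at -2.56, and 1 lower after NTS-1, Mrc1 at -1.47. Their sums were 2823 to 5134 in TS-2 mice 1 to 4 and 20501 in TS-2 mouse 5, 2546 to 5475 after NTS-1 and 2931 to 8752 in vehicle, with Timd4 dim on all NTS-1 arrays. Without TS-2 mouse 5, 2 macrophage markers were higher and 3 lower. Of 9 stellate cell markers 4 were higher after TS-2, with sums of 6120 to 12884 against 4553 to 7602. Hepatocyte-secreted proteins outside the set had 4 higher and 1 lower of 13, and sums of 273165 to 279016 against 263632 to 279076. The part of these cells in the members' values was not tested.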

How the data were processed

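Whole-liver RNA of each mouse, purified with RNeasy, was amplified in a single round (Enzo) for an Affymetrix array, per the labels' protocols. The authors deposited linear intensity values, and RMA is named in the submitters' processing notes, with its version and settings not given in the sources used here. Here log2 was taken of each intensity. Probe sets with 1 gene symbol (34958 of the array, with 932 of several symbols and 9211 of none left out) were kept, and the one with the highest mean stood for its gene. A gene was tested where it reached the 40th percentile of the array on at least 3 arrays. In the single-dose set this removed no gene, so all 18194 were tested, genes near the array floor among them. In the 2-week set it left 14454 genes.

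Each set was fitted with 1 limma model (limma 3.58.1, R 4.3.3) on all its groups, with no covariate, and p-values were adjusted by Benjamini-Hochberg over all genes tested. Intensities under 32 count as dim. Against a group dim on all arrays, or where some of its arrays are dim, a fold is a lower bound with such values set to 32. There were 10 comparisons with vehicle, 8 between gapmers and 1 difference of effects. No 2 of the 56 arrays held identical values (1540 pairs). Each array is a separate mouse in its title, and their number limits the precision. Genes named with values per mouse are those past the test and the 3 largest changes in each comparison with vehicle. The members and all lists were chosen with earlier results of these data known. The fit was tested on data simulated with normal noise, with changes placed in genes with a mean intensity of at least 32 in vehicle. For HTS-3 at 16 h it recovered 65% of 2-fold and 91% of 4-fold changes. For TS-2 after 2 weeks it recovered 95% and 100%, so smaller changes were more easily missed after a single dose. Same-numbered mice of TS-2 and vehicle at 8 h had deviations correlated at 0.10 to 0.45 over 3 pairs, which meets the limit set for pairing. Over all 10 comparisons with vehicle the values ran from -0.50 to 0.45, and the labels tie no number to a shared cage, litter or day. Alternatives covered the choice of probe set, the filter, quantile normalization, array weights, the groups fitted, the replicate number as a block, subsets of the vehicle mice, and each mouse left out.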

Additional observations from a re-analysis of the deposited data

Results flagged for a closer look

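In groups of 4 to 10 mice, 1 mouse lay far from the rest of its group in 18 of 147 combinations of group and gene examined. For a single combination chance gives about 1 in 20. That rate does not apply to the count, since 1 mouse can shift many members together and the genes were picked from these data. Whether 18 exceeds chance was not tested. HTS-3 16 h mouse 4 accounted for 6 of them. It was high in Masp1 (6311, others 1600 to 1981), Proc (24815, others 17100 to 18061), F7 (5774, others 2962 to 3225), F12 (20318, others 10120 to 11525) and Serpind1 (27833, others 16718 to 17991), and low in Mbl1 (6719, others 10795 to 10899). TS-2 72 h mouse 3 was high in F5 (10345, others 3652 to 4674) and C4bp (23487, others 16866 to 17894). At 8 h, TS-2 mouse 3 was high in F5 (5401, others 3557 to 3781), and TS-2 mouse 2 was low in F12 (6217, others 10414 to 10605) and Cfb (8530, others 11181 to 11453). At 16 h, NTS-1 mouse 2 was low in Mbl1 (9906, others 12278 to 12686) and NTS-1 mouse 4 was low in Masp2 (4282, others 4770 to 4846).

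Of the 2-week mice, vehicle mouse 7 was high in F7 (4890, others 3116 to 3840), F12 (6369, others 3675 to 4710) and Serpind1 (10281, others 8072 to 9240). TS-2 mouse 5 was low in F13b (2200, others 3155 to 3429) and high in Kng1 (21021, others 15498 to 16733).

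The HTS-3 effect on Cd55 differed between 16 and 8 h by -2.52 on the log2 scale (limma adjusted p = 0.0342), a call lost with any of 11 of the 13 mice left out.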

How the results depend on the processing

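Of 30 single-gene results past the test, 661 values were computed under other settings. None reversed, 569 kept direction and side of the threshold, and 92 fell short of it, 48 of them with 1 mouse left out, 12 with the compared groups fitted alone and 12 with the replicate block. Counts of members past the test moved as follows, and the cause was not tested. With array weights there were 1 for TS-2 at 16 h, 2 for HTS-3 at 16 h against vehicle, against NTS-1, against TS-2 and for the difference from 8 h, and 6 for NTS-1 after 2 weeks. With the compared groups alone there were 0 in each of the HTS-3 16 h results and in the difference from 8 h, 4 for NTS-1 after 2 weeks, and 4 for TS-2 against NTS-1. With the replicate block there were 0 for NTS-1 after 2 weeks, 5 for TS-2 against NTS-1 and 0 for the difference from 8 h, while TS-2 after 2 weeks had 10. The count for NTS-1 after 2 weeks was 0 with vehicle mice 1 to 5, 1 with vehicle mice 6 to 10 and 4 with the Actb ratio as a covariate, which gave 5 for HTS-3 against NTS-1 at 16 h. Counts over all genes moved too. For NTS-1 after 2 weeks 709 became 1960 with array weights, 0 with the replicate block, 1 with vehicle mice 1 to 5 and 1159 with the Actb ratio. For HTS-3 at 16 h against vehicle, 1337 became 59 with the compared groups alone. Against NTS-1, 1755 became 351 in that way and 2936 with the Actb ratio. Moving the HTS-3 mouse of uncertain time gave 2 for HTS-3 at 16 h and 0 for the difference from 8 h, which was also 0 with the mean of probe sets or quantile normalization. With 1 mouse left out the counts ran from 1 to 2 for HTS-3 at 16 h against vehicle and against NTS-1, 1 to 3 for NTS-1 after 2 weeks, 10 to 13 for TS-2 after 2 weeks, 7 to 11 for TS-2 against NTS-1, and 0 to 1 for the difference from 8 h. The Cd55 values of all TS-2 and some NTS-1 mice after 2 weeks are dim, so its change there is known as a lower bound.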
